A study of Homo sapiens with 4 samples.

Results

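The nascent RNA of the genes for translation initiation and elongation factors was compared between cells in hypertonic and in isotonic medium. The 44 genes were listed by symbol, by role in translation and not by any measured value, in 5 groups: start site selection and the ternary complex (9 genes), the exchange factor eIF2B (5), the scaffold eIF3 (13), the eIF4 group that handles the cap and unwinds mRNA (10) and elongation (7). Of these, 43 had a sense-strand entry among 57428 genes, and 42 were among the 21238 genes with enough counts to test. EIF4A1, which codes for the main mRNA helicase of the group, was not analysed here. EEF1G, a subunit of the eEF1 exchange complex, was not tested because its counted region was 2 bases long.

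The cells were U2OS, a human osteosarcoma line, and every library, controls included, came from cells stably overexpressing GFP-DCP1a, a decapping cofactor fused to a fluorescent protein, kept under G418 selection. Whether the line is 1 clone is not stated in the sources used here. Hypertonic medium held 300 mM sodium and isotonic medium 150 mM, with 2 libraries in each group, and RNA made during 30 min with 2 mM bromouridine was captured with no chase (Bru-seq, a measure of nascent transcription). The labels give neither the length of the hypertonic exposure nor whether replicates were separate cultures. The p-values set the difference between groups against the spread within them. That spread may be technical, so they speak only for these libraries.

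Initiation begins when eIF2, loaded with GTP and the initiator tRNA, joins the small ribosomal subunit together with eIF1, eIF1A, eIF3 and eIF5, and the eIF4 factors bring in the capped mRNA. eIF2B reloads eIF2 with GTP, and its inhibition by phosphorylated eIF2 is a central brake on translation under stress, hyperosmotic stress included. During elongation eEF1A delivers aminoacyl-tRNA, the eEF1B subunits recharge eEF1A, eEF2 moves the ribosome along and eIF5A helps at stalled peptide bonds. Bru-seq reads the making of the RNA and says nothing of the proteins.

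The 4 libraries held 23048409 to 44888307 counts. Across all tested genes the log2 values of the isotonic libraries correlated at 0.972, those of the hypertonic libraries at 0.891, and those of libraries from different groups at 0.887 to 0.947, so hypertonic replicate 1 stood apart. Antisense entries held 8.60 and 6.03% of the summed sense and antisense gene counts in hypertonic replicates 1 and 2. In the isotonic ones they held 3.17 and 3.36%, and what this adds to the results was not tested. Of 8 mesenchymal and osteoblast markers, 7 were tested and COL1A2 had 0 to 2 reads in a library, while of 7 markers of other cell types KRT5, CD3E and ALB had 0 reads in all 4. PECAM1 had 2 to 9 reads, CDH1 15 to 41, EPCAM 46 to 305 and PTPRC 74 to 140 in a library, and PTPRC, at 5.91 and 4.95 against 2.80 and 3.82 CPM, was above in both hypertonic libraries; their part in the results was not tested. Values are CPM, counts relative to the scaled size of their library, and in bulk samples fewer cells of a type and less RNA per cell cannot be told apart.

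Most factor genes had lower nascent RNA in hypertonic medium, by amounts that did not pass the test across genes. A negative log2 fold change (hypertonic over isotonic) was fitted for 35 of the 42 genes and a positive one for 7, with a median of -0.48 and a range from -1.40 for EIF5A2 to 1.47 for EIF4A3. The median of all tested genes was 0.04 and 47.6% of them were negative. With scaling by total count or upper quartile the factor genes had medians of -0.15 and -0.32, where all genes had medians of 0.26 and 0.23. Without hypertonic replicate 2 the median of the factor genes was -1.20. Among the 4828 protein-coding genes with a mean RPKM of at least 1 (a level per length, used below to compare genes), the median was -0.33 and 77.2% were negative. The 37 factor genes at that level had a median of -0.51, with 32 negative.

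In 16 of the 42 genes (38.1%) each hypertonic library was below each isotonic one, where all tested genes showed this for 17.5% and expressed protein-coding genes for 38.7%. The share was near that of other expressed genes, and with scaling by total count the number was 8 of 42, beside 8.17% of all tested genes. Without hypertonic replicate 2 it was 31 of 42, beside 42.3% of all genes. Without isotonic replicate 1 it was 25 of 42, beside 26.6%. Fewer libraries then have to be ordered, and the number also varied with the library left out. EIF4A3 was the 1 gene with both hypertonic libraries above both isotonic ones, which held for 22.5% of all tested genes and 5.32% of the expressed protein-coding ones. For the remaining 25 genes the groups overlapped.

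No factor gene passed the threshold of 0.05 on the adjusted p in edgeR's quasi-likelihood test, where 0% of all genes did and the lowest adjusted p of a factor gene was 0.359. DESeq2 also called 0 of them, beside 2.78% of the genes it tested, with a lowest adjusted p of 0.124. Limma-voom called 0 of them and 0 of all genes. At an unadjusted p under 0.05 there were 4 in edgeR and 4 in DESeq2, against 10.9 and 11.9% of all genes. In edgeR these were EIF2A, EIF4H and EIF5A2 on the lower side, beside 2.01% of all genes, and EIF4A3 on the higher side, beside 8.89%. Among the 4828 expressed protein-coding genes 319 were on the lower side and 68 on the higher side. Of the 37 factor genes at that level 2 were lower and 1 higher. Without hypertonic replicate 2, edgeR called 24 factor genes, 23 lower and EIF4A3 higher, beside 21.4% of all genes (10.3% lower); with hypertonic replicate 2 as the only hypertonic library it called 0.

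**Figure D1:**
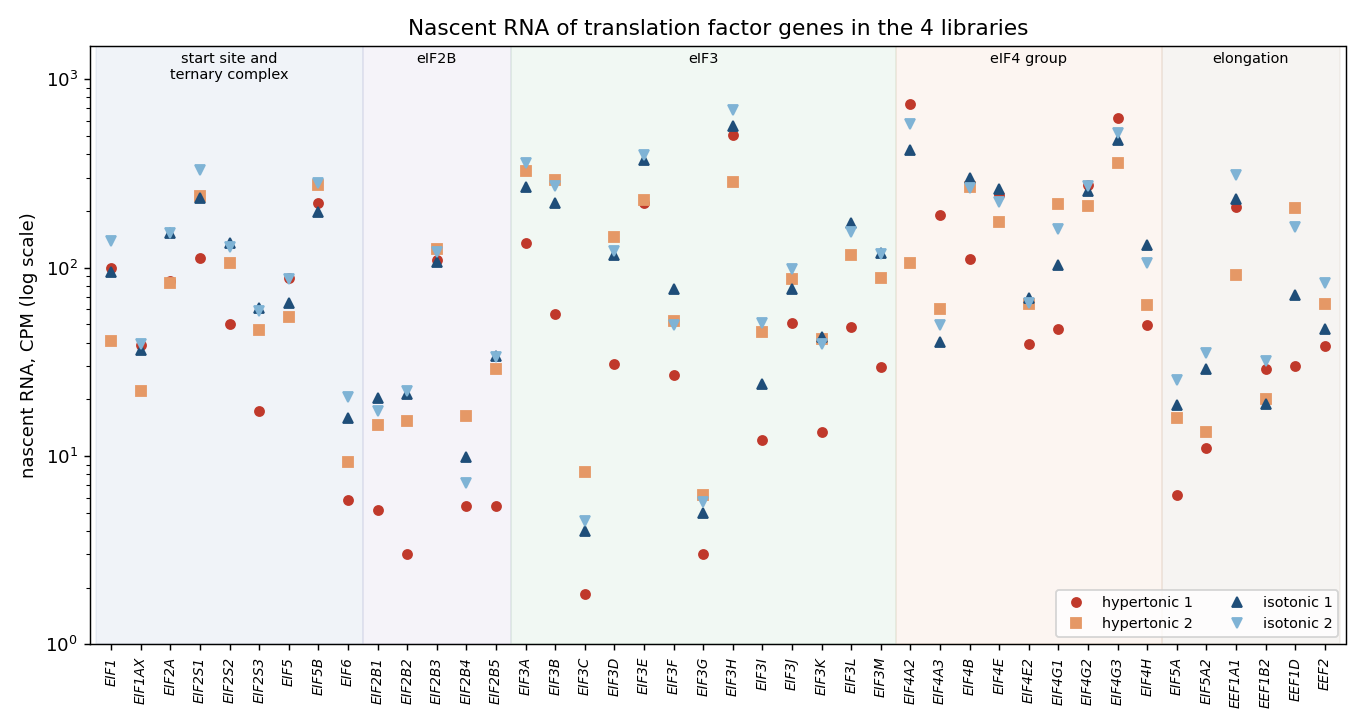
Nascent RNA of the 42 tested factor genes as CPM on a log axis, grouped by role, with 1 point for each of the 4 libraries. Hypertonic replicate 1 (circles) is the lowest point for most eIF2B and eIF3 genes, and the isotonic pair lies close together for most genes.

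The start sites of the factor genes are shown first because a C at the start followed by C and T is the known mark of 5′ TOP mRNAs, the class that includes eEF1A, eEF2 and several eIF3 genes and whose translation follows mTOR. A RefSeq start (GRCh38.p14) was found for 37 of the 44 genes. In 11 of them (29.7%) the annotated start was a C followed by at least 4 bases that were each C or T, which held for 5.14% of the 27305 gene symbols in the table. Counted by single starts the shares were 21.6% of 51 and 4.07% of 35116. Of 9 factor genes with a known 5′ TOP transcript, 6 had a RefSeq start and 5 of these had the run. EEF1D, EIF3E and EIF3H had no such start, and EEF1G had no run. The search read only the transcribed strand from the start base, and a match is a description of these letters. Each window below holds 15 bases before the start and 15 from it, 5′ to 3′ on the gene's own strand, with the C and T run from the start in capitals. The first 6 have such a run, and the last 3, among the 4 factor genes with an unadjusted p under 0.05 in edgeR, have none.
EEF1A1: gtcgccgtgaacgttCTTTTTCgcaacggg
EEF2: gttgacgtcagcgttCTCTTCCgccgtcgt
EIF4A2: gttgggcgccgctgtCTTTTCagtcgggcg
EIF3F: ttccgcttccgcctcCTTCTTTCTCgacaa
EIF2A: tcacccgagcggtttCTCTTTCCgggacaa
EIF2S3: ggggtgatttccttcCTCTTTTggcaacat
EIF4A3: gttctcggcagcggcacagcgaggtcggca
EIF5A2: cccgccccgtctcttggaactgccgcggcc
EIF4H: ccttcctcgctcaccctggttcctctcgga

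These windows lie at chr6:73521018-73521047 (minus strand) for EEF1A1, chr19:3985449-3985478 (minus) for EEF2, chr3:186783562-186783591 (plus) for EIF4A2 and chr11:7987322-7987351 (plus) for EIF3F. Those of EIF2A and EIF2S3 lie at chr3:150546772-150546801 and chrX:24054941-24054970, both on the plus strand. EIF4A3 starts within chr17:80147114-80147143 (minus), EIF5A2 within chr3:170908623-170908652 (minus) and EIF4H within chr7:74174341-74174370 (plus). The run was 6 bases in EIF4A2, 7 in EEF1A1, EEF2 and EIF2S3, 8 in EIF2A and 10 in EIF3F. The other genes with a run were EEF1B2, whose run of 16 bases was the longest, EIF3D, EIF3K, EIF3M and EIF4B.

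All 11 genes with the run had a negative fold change, although that of EEF1B2, -0.06, was 0.15 and 0.14 with scaling by total count and by upper quartile. Their median was -0.58, and 4 of them (36.4%, beside 38.7% of expressed protein-coding genes) had both hypertonic libraries below both isotonic ones. Of the other 24 tested genes with a RefSeq start, 18 were negative, with a median of -0.36, and 8 (33.3%) had both hypertonic libraries below. The hypertonic replicates differed in both sets, set against the mean of the isotonic pair. The genes with the run had medians of -1.23 in replicate 1 and -0.35 in replicate 2. The other 24 had medians of -0.97 and -0.27. Whether the 2 sets of genes differ was not tested.

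In the start site and ternary complex group, EIF6, EIF2A and the 3 subunits of eIF2 had lower mean nascent RNA in hypertonic medium, and EIF5 and EIF5B were close to their isotonic level. The group had 8 of 9 genes negative (EIF5 was positive with scaling by total count or upper quartile) and a median of -0.73, negative under each scaling tried and -0.47 without isotonic replicate 2. EIF2A (ENSG00000144895, chr3:150546685-150584242), which codes for a factor able to bring initiator tRNA to the ribosome without eIF2, measured 85.0 and 82.7 CPM in hypertonic replicates 1 and 2 and 153 and 152 CPM in isotonic replicates 1 and 2. All 4 values formed 2 tight pairs with no overlap. Its log2 fold change was -0.86 ± 0.37 (SE, n = 2 per group, as for every fold change here; adjusted p = 0.447). Leaving out any 1 library kept the value between -0.91 and -0.84.

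EIF6 (ENSG00000242372, chr20:35278907-35284985) codes for the factor that keeps the large ribosomal subunit from joining too early. It measured 5.83 and 9.23 CPM in hypertonic medium and 15.8 and 20.6 CPM in isotonic medium, with no overlap, and its log2 fold change was -1.27 ± 0.58. Its counted bases made up 86.2% of its span, and the rest was left out of its count.

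EIF2S1, EIF2S2 and EIF2S3 code for the alpha, beta and gamma subunits of eIF2, the tRNA carrier whose alpha subunit is phosphorylated by stress kinases. EIF2S1 measured 113 and 240.5 CPM in hypertonic medium and 233 and 331 CPM in isotonic medium, so that hypertonic replicate 2 lay between the isotonic ones. EIF2S2 measured 50.4 and 105 against 134 and 128 CPM, and EIF2S3 measured 17.4 and 46.4 against 60.9 and 58.9 CPM. The 3 genes shared 1 order: replicate 1 of the hypertonic group was the lowest library for each, at -1.32, -1.38 and -1.78 on the log2 scale relative to the isotonic mean, while replicate 2 stood at -0.23, -0.32 and -0.37. Their fold changes were -0.67 ± 0.47, -0.75 ± 0.45 and -0.91 ± 0.54, so the 3 subunits did not differ from each other beyond their errors.

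EIF1, which codes for the guardian of start codon choice, showed the opposite order of replicates. It measured 99.1 and 40.7 CPM in hypertonic medium and 94.4 and 138 CPM in isotonic medium, with a log2 fold change of -0.73 ± 0.50. EIF1AX, which codes for its partner eIF1A, measured 39.0 and 22.2 against 36.6 and 39.2 CPM. For both genes hypertonic replicate 1 lay among the isotonic values and replicate 2 below them. EIF5, the gene of the GTPase activator of eIF2, measured 87.9 and 54.3 against 64.8 and 86.8 CPM, and EIF5B, the gene of the GTPase that joins the subunits, 221 and 275 against 197 and 282 CPM. In these 2 the groups overlapped, with log2 fold changes of -0.09 ± 0.43 and 0.05 ± 0.40.

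The 5 genes of eIF2B split into 3 lower ones and 2 at or above the isotonic level, and hypertonic replicate 1 carried most of the difference. EIF2B1 (alpha subunit) measured 5.20 and 14.5 CPM in hypertonic medium and 20.2 and 17.4 CPM in isotonic medium. EIF2B2 (beta) measured 3.00 and 15.3 against 21.2 and 22.0 CPM, and EIF2B5, the gene of the catalytic epsilon subunit, 5.41 and 29.1 against 34.0 and 33.7 CPM. In these 3 (60% of the 5) both hypertonic libraries were below both isotonic ones. That held for 38.7% of expressed protein-coding genes and 17.5% of all tested genes. Replicate 1 stood at -1.85, -2.83 and -2.64 (log2 relative to the isotonic mean) and replicate 2 only at -0.37, -0.50 and -0.22. Their fitted log2 fold changes were -0.93 ± 0.64, -1.24 ± 0.75 and -0.97 ± 0.73.

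The other pair behaved differently. EIF2B3 (gamma), by far the longest eIF2B gene with 136 kb counted, measured 109 and 125 against 107 and 121 CPM, a log2 fold change of 0.03 ± 0.38 with all 4 libraries within a narrow band. EIF2B4 (delta) measured 5.41 and 16.3 against 9.91 and 7.22 CPM, so that its 2 hypertonic values bracketed the isotonic ones, and its fold change was 0.34 ± 0.68. The median of the group was -0.93, and it was -0.25 without hypertonic replicate 1 and -1.86 without replicate 2.

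Of the 13 eIF3 genes, 12 had a negative fold change (EIF3G was positive with scaling by total count), with a median of -0.51, negative under each scaling tried but -0.014 without hypertonic replicate 1 and -1.24 without hypertonic replicate 2. In the group 4 genes (30.8%) had both hypertonic libraries below both isotonic ones, beside 38.7% of expressed protein-coding genes. eIF3 is the largest initiation factor and holds the small subunit, eIF4G and the mRNA together. EIF3E (ENSG00000104408, chr8:108201743-108248765), the gene of the subunit that contacts eIF4G, measured 219.6 and 229 CPM in hypertonic medium and 371 and 396 CPM in isotonic medium. Its pairs were tight and did not overlap, and its log2 fold change was -0.78 ± 0.38. EIF3H, which codes for the subunit paired with EIF3F in the complex, measured 503 and 284 against 563 and 684 CPM and also showed no overlap, with a fold change of -0.66 ± 0.44.

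EIF3L and EIF3M code for subunits with a PCI domain, a fold of large multi-protein complexes. EIF3L measured 48.1 and 116 CPM in hypertonic medium and 172 and 155 CPM in isotonic medium, and EIF3M measured 29.8 and 87.7 against 119 and 117 CPM. Neither gene overlapped between groups, and their log2 fold changes were -0.99 ± 0.48 and -1.01 ± 0.52, the lowest of the eIF3 genes.

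In EIF3A, EIF3B and EIF3D the hypertonic replicates lay far apart. EIF3A, the gene of the largest subunit, measured 135 and 325 CPM in hypertonic medium and 267 and 358 CPM in isotonic medium. EIF3B, the gene of its main scaffold partner, measured 56.6 and 289.9 against 219.7 and 272 CPM. EIF3D, the gene of a subunit that can bind the cap of some mRNAs, measured 30.7 and 145 against 117 and 123 CPM. In EIF3B and EIF3D replicate 1 was the lowest library and replicate 2 the highest, and their log2 fold changes of -0.51 ± 0.65 and -0.45 ± 0.63 changed sign to 0.20 and 0.24 without hypertonic replicate 1.

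Hypertonic replicate 1 was also the lowest library for EIF3F, EIF3I, EIF3J, EIF3K and EIF3G. EIF3F measured 26.9 and 51.7 against 76.9 and 49.3 CPM, EIF3I 12.2 and 45.6 against 24.0 and 50.5 CPM, and EIF3K 13.4 and 41.6 against 42.7 and 39.2 CPM. EIF3J, the gene of a loosely bound subunit, measured 51.1 and 86.6 against 77.1 and 98.0 CPM. EIF3G was low in all libraries, with 3.00 and 6.21 against 4.95 and 5.68 CPM. The groups overlapped for all 5 and their fold changes lay between -0.68 for EIF3F and -0.21 for EIF3G.

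EIF3C, the gene of a core subunit, is uncertain because EIF3CL is a near-identical copy and the counting could split or drop their reads. EIF3C measured 1.86 and 8.21 against 3.97 and 4.49 CPM, and EIF3CL, counted as a cofactor gene here, 0.338 and 1.89 against 1.23 and 0.877 CPM. Per length, EIF3C had the lowest level of the tested factor genes, an isotonic mean of 0.0701 RPKM.

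**Figure D2:**
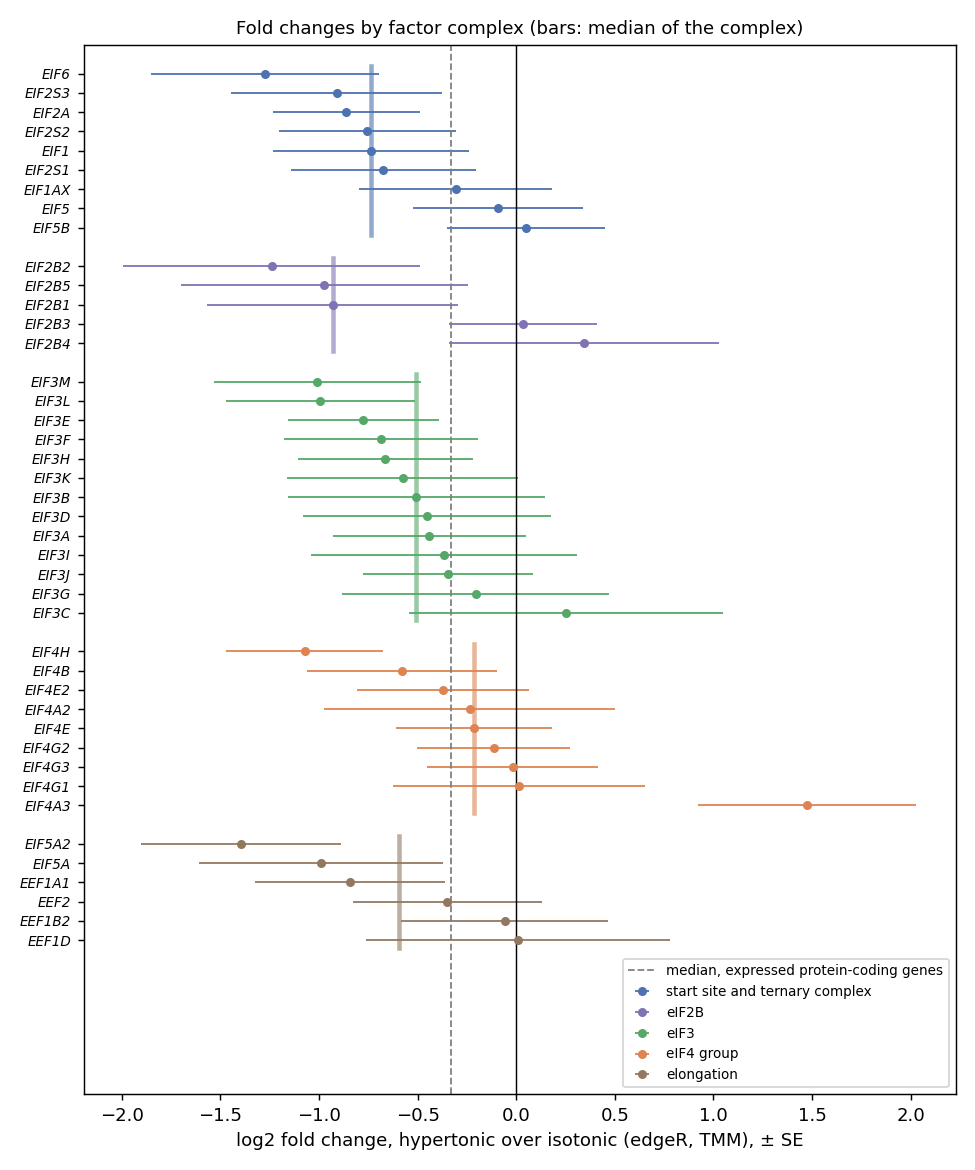
Log2 fold change of each tested factor gene (hypertonic over isotonic, edgeR with TMM scaling) with its standard error as a bar, by group; thick vertical lines are group medians and the dashed line is the median of expressed protein-coding genes at -0.33. Group medians run from -0.93 for eIF2B to -0.21 for the eIF4 group, and EIF4A3 at 1.47 lies apart from the others.

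The eIF4 group held both the factor gene that was highest and one of the lowest relative to isotonic medium. Its median of -0.21 was the nearest to 0 of the 5 groups and was -0.03 with scaling by total count and -0.0036 without hypertonic replicate 2. EIF4A3 (ENSG00000141543, chr17:80135214-80147183, minus strand) codes for the DEAD-box protein of the exon junction complex, related to the helicase eIF4A. It measured 189.8 and 60.0 CPM in hypertonic replicates 1 and 2 and 40.5 and 49.5 CPM in isotonic medium. Both hypertonic values were above both isotonic ones, but replicate 2 by little: relative to the isotonic mean they stood at 2.08 and 0.42 on the log2 scale. The fitted log2 fold change was 1.47 ± 0.55 (edgeR, adjusted p = 0.372), and it ranged from 0.38 without hypertonic replicate 1 to 2.07 without replicate 2.

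EIF4A2 (ENSG00000156976, chr3:186783547-186789900), the gene of the second eIF4A helicase, had the highest level per length of the factor genes and the widest gap between the hypertonic replicates. It measured 741 and 106 CPM in hypertonic medium and 419 and 578 CPM in isotonic medium, so that replicate 1 was the highest library and replicate 2 the lowest. Its log2 fold change of -0.24 ± 0.74 became 0.57 without hypertonic replicate 2 and -2.27 without replicate 1. The 5 snoRNA genes with enough counts inside its introns carried the same order. Of its 2 SNORA63 entries, 1 measured 8.49 and 1.30 against 3.11 and 4.49 CPM and the other 18.1 and 2.59 against 11.3 and 15.3 CPM. SNORA81 measured 8.74 and 1.49 against 4.19 and 6.45 CPM, SNORD2 9.88 and 1.02 against 6.35 and 8.98 CPM, and SNORA4 21.9 and 3.62 against 11.7 and 18.9 CPM. The counted bases of EIF4A2, 89.9% of its span, leave these entries out, so the 6 entries were counted on separate stretches of 1 transcription unit. Reads of the host's intron and of a processed snoRNA cannot be told apart in them.

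EIF4H (ENSG00000106682, chr7:74174245-74197101) and EIF4B code for 2 proteins that stimulate the eIF4A helicase. EIF4H measured 49.4 and 63.3 CPM in hypertonic medium and 132 and 106 CPM in isotonic medium. Its groups did not overlap, and its log2 fold change was -1.07 ± 0.40 (edgeR, adjusted p = 0.366), between -1.27 and -0.94 when any 1 library was left out. MIR590, a microRNA gene in an EIF4H intron, measured 0.0845 and 0.275 against 0.785 and 0.774 CPM, the same direction on few reads. EIF4B measured 111 and 268 against 300.1 and 265 CPM, so that its groups overlapped, with a fold change of -0.58 ± 0.48.

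The cap-binding and scaffold genes showed no common direction. EIF4E, the gene of the cap-binding protein, measured 242 and 175 CPM in hypertonic medium and 262 and 222 CPM in isotonic medium, and EIF4E2, the gene of a cap-binding homologue that acts in repression, 39.3 and 64.4 against 69.1 and 64.9 CPM. EIF4E2 was lower in both hypertonic libraries, replicate 2 by a margin of less than 1 CPM. EIF4G1, the gene of the scaffold that links cap and ribosome, measured 47.1 and 218 against 103 and 159.9 CPM, where the hypertonic values bracketed the isotonic ones. EIF4G2, the gene of a scaffold that does not bind eIF4E, measured 274 and 213 against 256 and 271 CPM, and EIF4G3 620.4 and 360.1 against 473 and 519 CPM. The fold changes of the 3 EIF4G genes lay between -0.11 and 0.01, each smaller than its error.

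Compared per length, paralogues differed by more than the spread between isotonic libraries. EIF4A2 had an isotonic mean of 67.8 ± 11.0 RPKM (SD, n = 2, as for the following) and EIF4A3 one of 2.93 ± 0.228 RPKM. In hypertonic medium EIF4A2 measured 88.2 and 17.5 RPKM and EIF4A3 10.8 and 4.72 RPKM, so EIF4A2 stayed the higher of the pair in each library. EIF4G2 led the scaffold genes at 17.3 ± 0.446 RPKM, before EIF4G1 at 4.90 ± 1.19 and EIF4G3 at 1.05 ± 0.00188 RPKM. EIF4G3 had the highest CPM of these 3 genes because its counted length was 370.0 kb. In hypertonic replicate 1 EIF4G1 came down to 1.54 RPKM beside 1.14 RPKM for EIF4G3, and in replicate 2 it reached 9.88 RPKM. EIF4E stood at 3.24 ± 0.587 RPKM and EIF4E2 at 1.56 ± 0.171 RPKM, and EIF5A at 3.13 ± 0.468 RPKM and EIF5A2 at 1.23 ± 0.0949 RPKM. These differences in level between genes were not tested.

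**Figure D3:**
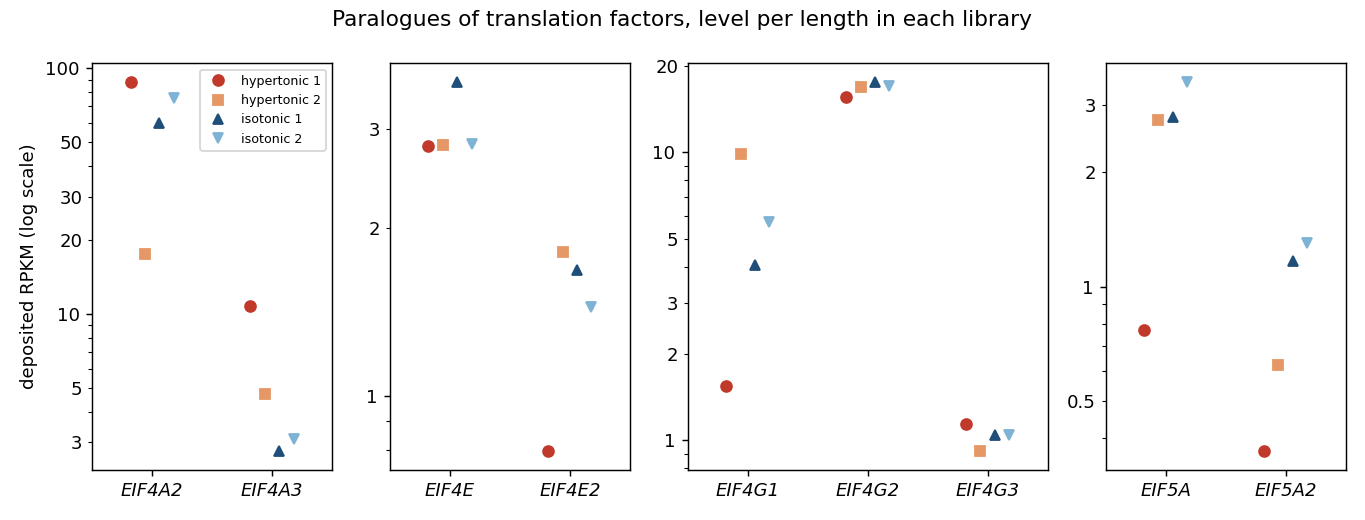
Deposited RPKM (log axes, with a separate scale in each panel) of paralogous factor genes in each of the 4 libraries. EIF4A2 lies above EIF4A3 and EIF4G2 above EIF4G3 in every library, whereas EIF4G1 ranges from 1.54 to 9.88 RPKM between the hypertonic replicates.

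Of the 6 tested elongation genes 5 had a negative fold change (EEF1B2 was positive with scaling by total count or upper quartile), with a median of -0.60, negative under each scaling tried. Leaving out 1 library moved that median to between -1.16 (without hypertonic replicate 2) and -0.28 (without isotonic replicate 2). EIF5A2 (ENSG00000163577, chr3:170888415-170908693, minus strand) and EIF5A code for the 2 forms of the hypusine-bearing factor that helps ribosomes past difficult peptide bonds. EIF5A2 measured 11.0 and 13.4 CPM in hypertonic medium and 28.9 and 35.3 CPM in isotonic medium. Its groups did not overlap, and its log2 fold change of -1.40 ± 0.51 was the lowest of the factor genes (edgeR, adjusted p = 0.359), between -1.57 and -1.28 when any 1 library was left out. EIF5A measured 6.21 and 16.0 against 18.7 and 25.3 CPM, also without overlap, with a fold change of -0.99 ± 0.62.

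EEF1A1 (ENSG00000156508, chr6:73515750-73521721, minus strand), the gene of the tRNA-delivering GTPase and the second highest factor gene per length, measured 210.3 and 91.1 CPM in hypertonic medium and 229.9 and 309.9 CPM in isotonic medium. Both hypertonic values lay below both isotonic ones, replicate 2 much further than replicate 1, and the log2 fold change was -0.84 ± 0.48. EEF1B2 and EEF1D code for the exchange factors that recharge eEF1A. EEF1B2 measured 28.9 and 20.0 against 18.9 and 32.1 CPM, with both hypertonic values inside the isotonic range. EEF1D measured 30.2 and 208 against 71.3 and 165 CPM, with both hypertonic values outside it, on opposite sides. EEF2, the gene of the translocase, measured 38.2 and 63.9 against 46.9 and 83.2 CPM, a fold change of -0.35 ± 0.48 with overlapping groups.

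The 2 hypertonic libraries thus ordered the factor genes differently. Relative to the isotonic mean the median over the 42 genes was -1.19 in replicate 1 and -0.31 in replicate 2, and 30 genes were lower in replicate 1 than in replicate 2. The median gap between the hypertonic replicates was 1.15 on the log2 scale, and between the isotonic replicates 0.28. For expressed protein-coding genes these gaps were 0.79 and 0.25. Their medians were -0.56 in replicate 1 and -0.34 in replicate 2, and 2865 of 4828 were lower in replicate 1. By group, eIF2B stood at -1.85 and -0.22 in hypertonic replicates 1 and 2, eIF3 at -1.23 and 0.02, the start site group at -0.84 and -0.48, elongation at -1.15 and -0.41, and the eIF4 group at 0.0005 and -0.31.

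Genes low mainly in replicate 1 included EIF2B2, EIF2B5, EIF3B, EIF3D, EIF4G1 and EEF1D, and genes low mainly in replicate 2 included EIF4A2, EIF1, EEF1A1, EIF3H and EIF1AX. EIF2A, EIF3E, EIF4H, EIF5A2 and EIF6 were low in both. These names were chosen after the values were seen. Across the 42 genes the 2 replicates' values had a Spearman rho of -0.15, and across the 4828 expressed protein-coding genes one of -0.01. The gap (replicate 1 minus replicate 2) had a rho of -0.51 with the GC content of a gene's transcripts and 0.01 with its counted length; across the 4828 expressed protein-coding genes these were -0.35 and 0.44. All values of a replicate share 1 library and its scaling, so the correlations are descriptions without a test. Which technical or biological difference between the 2 libraries goes with this was not tested.

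**Figure D4:**
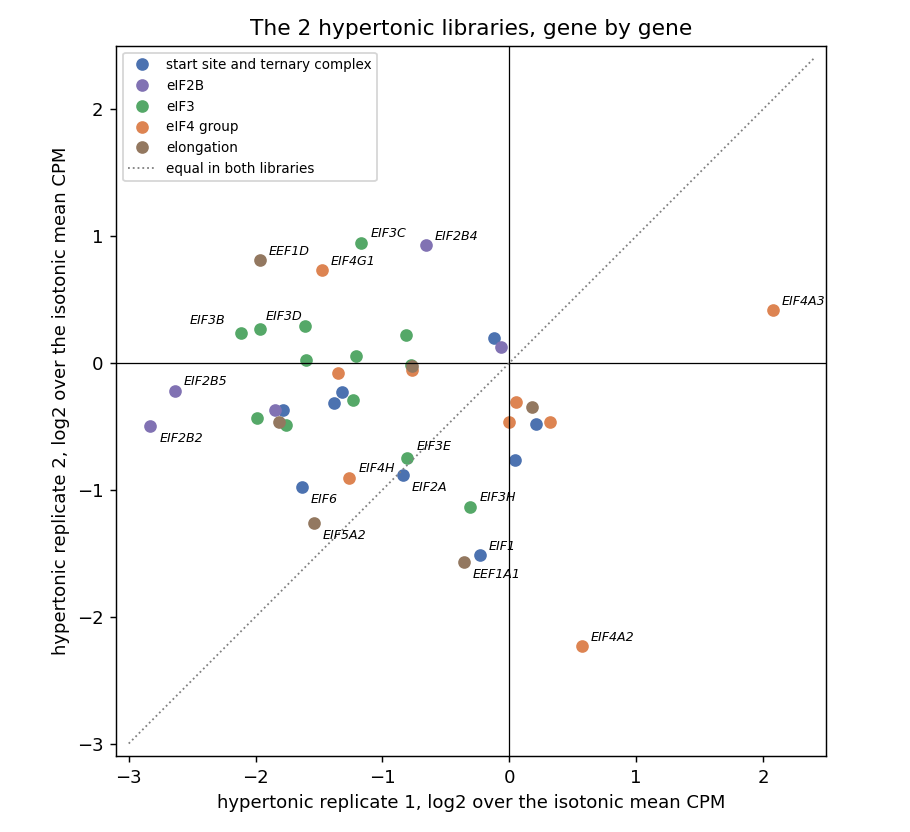
Each tested factor gene's CPM in hypertonic replicate 1 (x axis) and replicate 2 (y axis), as log2 over the isotonic mean, coloured by group; the dotted line marks equal values. Many eIF2B and eIF3 genes lie far to the left at values near 0 on the y axis, EIF4A2 lies at lower right, and EIF2A, EIF3E and EIF5A2 lie near the dotted line below 0.

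Downstream of the factor genes nascent RNA tended the other way, as it did downstream of expressed protein-coding genes in general. The next tested gene on the same strand within 10 kb was found after 12 factor genes. Of these neighbours 9 had a positive log2 fold change and 3 a negative one (25%), with a median of 0.55. For 1463 such neighbours of expressed protein-coding genes the median was 0.64 and 22.4% were negative. Relative to the isotonic mean, the 12 had medians of 0.18 in hypertonic replicate 1 and 0.96 in replicate 2. In 4 of the 12 (33.3%) both hypertonic libraries were above both isotonic ones, where 47.6% of those 1463 were. MAP7D2, 7601 bases past the end of EIF1AX, measured 25.1 and 4.60 CPM in hypertonic medium and 1.86 and 1.65 CPM in isotonic medium. Its log2 fold change was 3.07 ± 0.87 (adjusted p = 0.253 in edgeR and 0.0069 in DESeq2). FAM131A, 568 bases past EIF4G1, measured 13.9 and 21.8 against 3.46 and 6.14 CPM. Its fold change was 1.90 ± 0.63, whereas EIF4G1 itself stood at 0.01. AC004840.1, past EIF3B, was also higher in both hypertonic libraries, at 0.52 ± 0.61.

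On the opposite strand, 41 factor genes had an antisense entry, and 12 of these had a mean of at least 1 CPM. In 8 of the 12 both hypertonic libraries were above both isotonic ones and in 0 below, near the shares of 65.6 and 1.52% among the 6642 antisense entries at that level. Summed over the factor genes, antisense RNA came to 3.74 and 1.78% of sense RNA in the hypertonic and 0.901 and 0.873% in the isotonic libraries. EIF5B had 43.1 and 19.9 CPM antisense in the hypertonic and 9.56 and 13.4 CPM in isotonic medium; it overlaps REV1 on the other strand. The antisense entry of EIF2B1, which overlaps GTF2H3 and DDX55, measured 13.6 and 12.3 against 4.10 and 2.65 CPM, and in hypertonic replicate 1 it exceeded the 5.20 CPM of the EIF2B1 sense entry. EIF2S2, which ends 3414 bases from the end of the convergent gene RALY, had 54.5 CPM antisense in hypertonic replicate 1 against 11.2 CPM in replicate 2 and 11.9 and 13.5 CPM in isotonic medium. The antisense entries of EIF5B and EIF2B1 counted 63122 and 12797 bases, fewer than the genes' spans of 63974 and 13361. Bases lying within the partner genes were left out, so these counts came from outside the annotated partners. The library protocol ties strand to actinomycin D in certain samples, not named, so reads of opposite strands may not be fully separated.

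**Figure D5:**
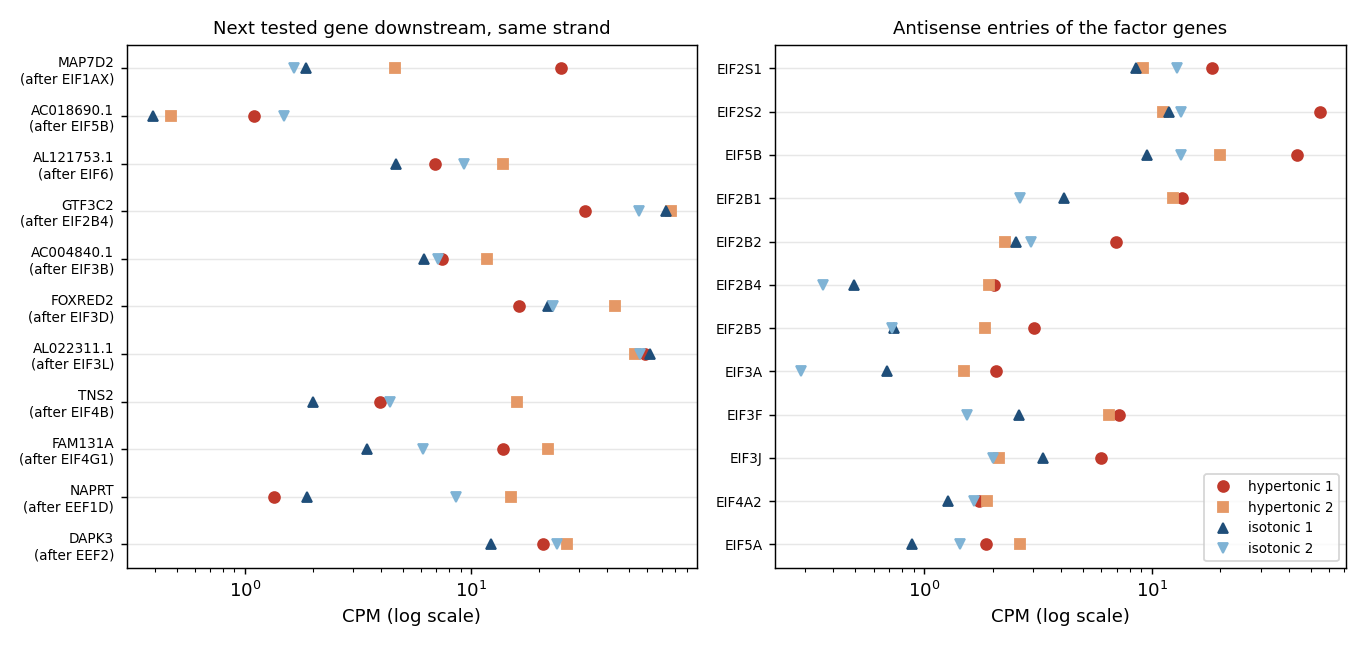
CPM on log axes in the 4 libraries for the next tested same-strand gene after 11 of the 12 factor genes that have one (left) and for the antisense entries of factor genes with a mean of at least 1 CPM (right). MAP7D2 and FAM131A are higher in both hypertonic libraries, and 8 of the 12 antisense entries have both hypertonic points to the right of both isotonic ones.

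Other genes of the translation pathway were closer to 0 as lists. Of 18 tested genes that control initiation (eIF2 kinases and phosphatase subunits, cap-binding inhibitors, mTOR and its targets) 12 were negative, with a median of -0.09 and 2 genes with both hypertonic libraries below both isotonic ones. Of 20 cofactors and paralogues 14 were negative (median -0.32), of 6 termination and recycling genes 5 (median -0.45) and of 6 mitochondrial translation factors 4 (median -0.17). Together 35 of 50 were negative, with a median of -0.22. In 11 (22%) both hypertonic libraries were below and in 4 (8%) above. These shares were 17.5 and 22.5% among all tested genes, and 38.7 and 5.32% among expressed protein-coding genes, a level that not all of the 50 reached. EdgeR, DESeq2 and limma-voom called 0 of the 50, beside 0, 2.78 and 0% of the genes each tested. An unadjusted p under 0.05 was found for 5 in edgeR and 6 in DESeq2, near the 10.9 and 11.9% of all genes. Of the 5 in edgeR 4 were lower and 1 higher, where 2.01% of all genes were lower and 8.89% higher. Among 4828 expressed protein-coding genes 319 were lower and 68 higher.

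The genes named from these lists were the 3 with the smallest p in each. MKNK1 and MKNK2 code for the kinases that phosphorylate eIF4E. MKNK1 measured 27.5 and 8.41 CPM in hypertonic medium and 5.22 and 5.26 CPM in isotonic medium (log2 fold change 1.77 ± 0.70), and MKNK2 12.1 and 9.19 against 4.02 and 6.19 CPM (1.06 ± 0.62); neither overlapped between groups. PPP1R15B, the gene of the constitutive eIF2 phosphatase subunit, measured 77.5 and 31.6 against 76.8 and 127 CPM, with overlap.

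ABCE1, the gene of the ribosome recycling ATPase, and ETF1, that of the release factor eRF1, were lower in both hypertonic libraries. ABCE1 measured 37.1 and 69.6 against 119.9 and 129 CPM (log2 fold change -1.22 ± 0.44), and ETF1 56.3 and 68.9 against 97.7 and 146 CPM (-0.96 ± 0.41). The third of that list, GSPT2, measured 1.60 and 5.78 against 5.76 and 4.54 CPM, with overlap. Among the cofactors, PAIP1, which codes for a partner of poly(A)-binding protein, measured 53.5 and 71.1 against 153 and 96.1 CPM, while PAIP2, the gene of an inhibitor of that protein, measured 87.6 and 46.0 against 44.4 and 37.1 CPM. The 2 genes lay on opposite sides without overlap, at -1.00 ± 0.42 and 0.71 ± 0.47. EIF2D, the gene of a reinitiation factor, measured 6.17 and 20.0 against 31.3 and 29.9 CPM (-1.23 ± 0.63).

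For mitochondria, GFM1, the gene of an elongation factor, measured 60.6 and 78.0 against 128 and 136 CPM (log2 fold change -0.93 ± 0.39) and TSFM, that of the exchange factor, 8.66 and 18.0 against 30.0 and 21.0 CPM. MTIF2, the gene of an initiation factor, lay higher in both hypertonic libraries, with 83.1 and 67.7 against 52.7 and 51.8 CPM.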

How the data were processed

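Bromouridine-labelled RNA of 2 hypertonic and 2 isotonic libraries was compared. The authors deposited, for each library, an estimated count of reads per gene entry and strand and an RPKM value per counted length. The columns carry no names, so what they hold was inferred from the numbers themselves. The submitters' processing notes list bedtools 2.16.2, STAR 2.5.3a, Bowtie2 2.3.3 and CASAVA 1.8.2, without roles, and the genome builds GRCh38 and hg38. Bases shared by same-strand genes stood in separate entries (3.11 to 3.48% of counts), which were left out.

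Strand came from GENCODE release 29. Expected counts were rounded, and sense entries were tested with edgeR 4.0.16 (R 4.3.3; TMM factors 0.947, 1.22, 0.974 and 0.887, default filter, quasi-likelihood test, Benjamini-Hochberg adjustment over all 21238 genes at 0.05), a procedure tested on simulated data. Standard errors were obtained by dividing each log2 fold change by the root of its F statistic. Log2 values of single libraries used CPM plus 0.05. DESeq2 1.42.0, limma 3.58.1, other scalings and filters, RPKM with added constants of 0.1 and 1, and each library left out were alternatives. Factor genes and lists were chosen with earlier results of these data known. Every factor gene is named, as are the 3 genes with the smallest p of each other list and neighbours chosen by position; 1 neighbour is not reported here. Start sequences are from RefSeq, GRCh38.p14. Counts are reads, not molecules, so the depths given cover counting error only.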

Additional observations from a re-analysis of the deposited data

How the results depend on the processing

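Genes called over all genes numbered 0 with edgeR, 676 with DESeq2, 916 without a filter on low counts and 0 to 4918 when 1 library was left out; 6 were called without isotonic replicate 1, 4 without isotonic replicate 2 and 4918 without hypertonic replicate 2. The numbers called among factor genes were 0 under all these settings but 1: 24 without hypertonic replicate 2. With 1 library left in a group, it is assumed to vary like the pair of the other group. The median of the factor genes stayed negative under every setting run; it was -0.15 by total count and -0.32 by upper quartile, where the median of all genes was 0.26 and 0.23, and -1.20 to -0.35 with 1 library left out. Left-out ranges were -0.89 to -0.47 for the start site group, -1.86 to -0.25 for eIF2B, -1.24 to -0.014 for eIF3, -0.34 to -0.0036 for the eIF4 group and -1.16 to -0.28 for elongation. By total count the start site group stood at -0.47 and the eIF4 group at -0.028, and the latter at -0.011 by upper quartile. Factor genes with both hypertonic libraries below both isotonic ones numbered 8 by total count and 20 to 31 with 1 library left out, where fewer libraries have to be ordered.

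Deviations of same-numbered libraries from their group means correlated at 0.025 across genes. With 2 libraries per group this cannot show whether same-numbered libraries were paired. With the replicate number as a block edgeR called 384 genes and 0 factor genes, whose median was -0.72; EEF1D was then -0.45, EIF3C -0.10 and EIF4G1 -0.34.

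Small fold changes changed sign in 10 genes under other settings. EEF1B2 became 0.00073 (RPKM plus 0.1), 0.024 (voom), 0.15 (total count) and 0.14 (upper quartile). EEF1D became -0.094 (DESeq2), -0.065 (RLE), -0.38 and -0.19 (RPKM plus 0.1 and plus 1), -0.41 (voom) and -0.039 (no filter), and EIF4G1 -0.086, -0.057, -0.28, -0.15, -0.32 and -0.038 under the same settings. EIF2B3 was -0.035 and EIF5B -0.023 with DESeq2, and -0.026 and -0.011 without a filter. EIF3C was -0.10 with voom. By total count EIF3G was 0.080, EIF4G2 0.086, EIF4G3 0.16 and EIF5 0.096, and by upper quartile EIF4G2 was 0.082, EIF4G3 0.19 and EIF5 0.11. The cause was not tested.

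With 1 library left out, 23 of 42 factor genes stayed negative, EIF4A3 stayed positive and 18 spanned 0: EEF1B2 (-0.42 to 0.33), EEF1D (-1.97 to 0.78), EEF2 (-0.77 to 0.083), EIF1AX (-0.80 to 0.038), EIF2B3 (-0.080 to 0.094), EIF2B4 (-0.67 to 0.89), EIF3A (-1.21 to 0.023), EIF3B (-2.12 to 0.20), EIF3C (-1.19 to 0.92), EIF3D (-1.97 to 0.24), EIF3G (-0.83 to 0.19), EIF3I (-1.61 to 0.26), EIF4A2 (-2.27 to 0.57), EIF4G1 (-1.48 to 0.70), EIF4G2 (-0.34 to 0.051), EIF4G3 (-0.50 to 0.32), EIF5 (-0.51 to 0.21) and EIF5B (-0.22 to 0.29).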

Other observations

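Upstream of the factor genes, the next tested same-strand gene within 10 kb was found for 7. In 2 of them (28.6%, beside 22.5% of all tested genes) both hypertonic libraries were above both isotonic ones: FAM83C, before EIF6, measured 2.75 and 1.02 against 0 and 0.206 CPM, and DCDC2B, before EIF3I, 1.48 and 2.28 against 0.123 and 0.258 CPM. Their log2 fold changes were 4.45 ± 1.33 and 3.35 ± 0.87, with adjusted p = 0.273 and 0.220 in edgeR and 0.0374 and 0.0568 in DESeq2. The antisense entry of EIF6 held 42.6 and 37.6 estimated reads in the hypertonic libraries and 0 in both isotonic ones; against a limit of 3 counts in each isotonic library the hypertonic mean was at least 14.3-fold higher. Antisense RNA of EIF2B4 (2.03 and 1.92 against 0.490 and 0.361 CPM), EIF2B5 (3.05 and 1.85 against 0.736 and 0.723 CPM), EIF3A (2.07 and 1.49 against 0.687 and 0.289 CPM), EIF3F (7.14 and 6.48 against 2.60 and 1.55 CPM) and EIF5A (1.86 and 2.63 against 0.888 and 1.45 CPM) was also above in both hypertonic libraries.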
